A study of Mus musculus with 21 samples.

Results

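Hippocampus and cortex were compared within GA-Camk2a mice. The libraries were those labelled GACamk in the sample labels, 6 from hippocampus and 6 from cortex of the same 6 mice (numbers 16, 23, 30, 34, 35 and 41), which is 12 of the 21 libraries of the series. These mice carry a floxed transgene for GFP-tagged poly-GA, a dipeptide repeat protein made from the expanded C9orf72 repeat of ALS, and a Camk2a-Cre driver that switches it on in excitatory neurons, and they were killed at 30 to 40 weeks of age, when the line reaches its humane endpoint. The 5 control mice (9 libraries, 5 from cortex and 4 from hippocampus, with both tissues from 4 mice) had the same age range. Which alleles the controls carried is not given in the labels. Both groups were kept on a C57BL/6J background. As a model, the line expresses only poly-GA among the repeat proteins, in a single class of neurons, and the GA-Camk2a mice came from few litters. The label batch was 1 for 4 cortex and 3 hippocampus libraries and 2 for the others, and both tissues of a mouse shared a batch in 3 mice (30, 34 and 35).

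Cortex and hippocampus hold different excitatory neurons: layered projection neurons in neocortex, and granule cells of the dentate gyrus and pyramidal cells of the CA fields in hippocampus. Microglia, the brain's macrophages, and astrocytes are present in both, and in neurodegeneration they switch on shared programmes: phagocytic and lysosomal genes, complement and antigen presentation in microglia, and intermediate filaments and secreted protease inhibitors in astrocytes. Regional comparison within a mouse removes differences between animals.

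Total counts of the 12 libraries ranged from 1112553 to 3348378 and did not differ detectably between the tissues (exact sign-flip permutation test over 6 mice, p = 0.719). The row of the GFP tag, which should mark the transgene, held 11 counts over the 6 cortex libraries, 2 over the hippocampus libraries and 4 over the control cortex libraries, at most 4 in any library. At this depth it did not separate the genotypes, and it gave no check of the labels. Some libraries stood apart. Transthyretin (Ttr), the main product of the choroid plexus, was at 56104, 50520 and 47086 CPM (counts scaled to a common library total) in the hippocampus libraries of mice 16, 30 and 35 and at 9224 in that of mouse 23, but at 1907 and 1754 in those of mice 34 and 41, and it was raised to 8467 in the cortex library of mouse 34. The layer 4 gene Rorb was at 5391 and 4513 CPM in the hippocampus libraries of mice 16 and 30 against 106 to 162 in the other hippocampus libraries. Values limited to mice 23, 34 and 41, whose hippocampus libraries held less choroid plexus RNA, are therefore given where they differ, a choice made after seeing the data. That fit had no batch term, and mice 23 and 41 had cortex in batch 1 and hippocampus in batch 2. Less choroid plexus RNA and batch can therefore not be told apart in its values. In bulk tissue, fewer cells of a type and less RNA per cell cannot be told apart.

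Most regional differences of control mice were also found at end stage. Of 13098 genes tested in GA-Camk2a mice with mouse and batch in the model, 4312 (32.9%) differed between the tissues (edgeR quasi-likelihood test with Benjamini-Hochberg adjustment at a threshold of 0.05). Hippocampus exceeded cortex for 2194 of them (16.8%) and was below it for 2118 (16.2%). The log2 fold change of hippocampus against cortex was beyond 1 for 412 of the higher and 142 of the lower genes, and its median over all genes was -0.01. The CPM of the tissues did not overlap for 13.6% of the genes tested, with hippocampus above cortex for 7.67% and below it for 5.89%. In control mice, 2086 of 14751 genes (14.1%) differed in a fit of all 21 libraries, 7.1% higher and 7.04% lower. Of the 1874 control genes that could be tested in both, 1381 (73.7%) were called in the same direction in GA-Camk2a mice, 8 in the opposite direction and 485 in control mice only, and 1800 (96.1%) had the same sign. The share was 75.1% for genes higher and 72.3% for genes lower in control hippocampus. Across these 1874 genes the log2 fold changes of the genotypes had a Pearson correlation of 0.88, with a median size of 0.66 in control and 0.54 in GA-Camk2a mice. These genes were picked by their call in control mice, which favours large control values. Over all 13098 genes the correlation was 0.73, and the median size was 0.22 in control and 0.28 in GA-Camk2a mice. These are values across genes, which are not independent replicates. Another 2923 genes were called in GA-Camk2a mice only, where 6 mice were compared against 4 in control, so a call in a single genotype does not show a difference. Without mouse 16, the count in GA-Camk2a mice was 2271 and the share of control calls 53.1%. Within the mice whose tissues shared a batch, these values were 1910 and 47.8%. Among GA-Camk2a mice, only mouse 16 had its cortex library in batch 2 and its hippocampus library in batch 1, the reverse of mice 23 and 41. Without mouse 16 the batch term takes up the tissue difference of mice 23 and 41, and the estimate rests on mice 30, 34 and 35. Omission of mouse 16 and the same-batch fit are thus not separate checks, and calls that end there do not single out mouse 16.

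**Figure D1:**
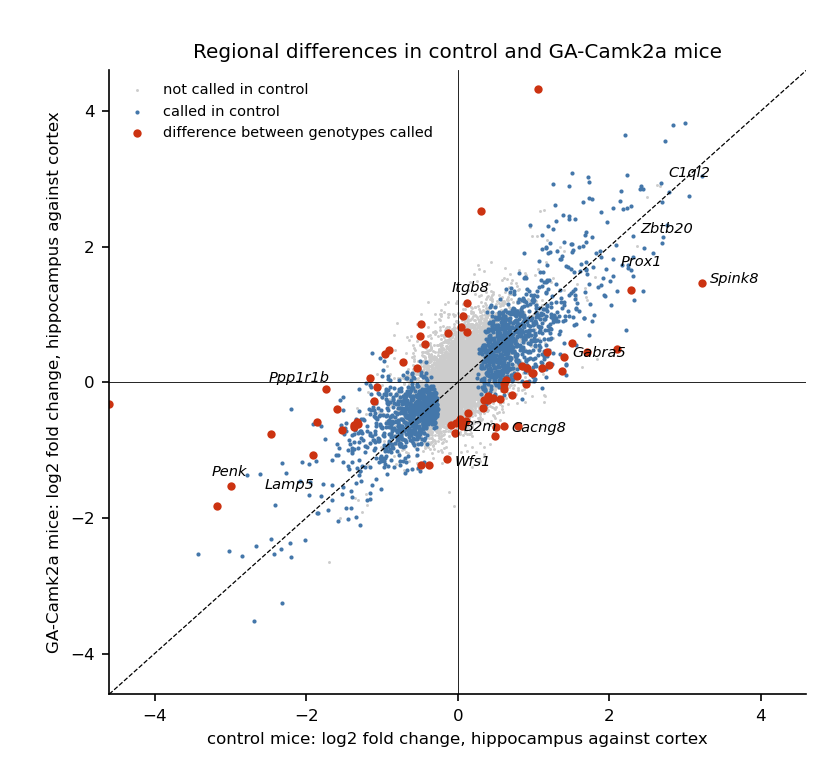
Log2 fold change of hippocampus against cortex in control mice (x axis) and GA-Camk2a mice (y axis), 1 point per gene tested in both fits, with the dashed line marking equal values; 1 gene with a control value of -6.57 is drawn at the left edge. Genes called in control mice (blue) lie along the dashed line, and genes whose regional difference itself differed between the genotypes (red) lie off it, such as Cacng8 at 0.61 in control and -0.64 in GA-Camk2a mice.

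Granule cell genes of the dentate gyrus were higher in hippocampus. Zbtb20, a transcription factor that specifies hippocampal pyramidal and granule cells, ranged from 71.2 to 129 CPM in cortex (median 112) and from 437 to 618 in hippocampus (median 488). Every hippocampus library was above every cortex library, by 2.16 ± 0.11 on the log2 scale (SE, n = 6 mice, edgeR adjusted p = 1.93e-07), against 2.31 in control mice. Prox1, the granule cell identity factor, was at 10.7 to 16.7 CPM in cortex (median 11.9) and 36.0 to 73.0 in hippocampus (median 45.1). It also showed no overlap and was higher by 1.81 ± 0.17 (edgeR adjusted p = 1.98e-05). C1ql2, a synaptic organizer of mossy fibre terminals, was higher by 2.93 ± 0.21 (edgeR adjusted p = 3.57e-06), and desmoplakin (Dsp) by 3.04 ± 0.32 (edgeR adjusted p = 3.56e-05). The diacylglycerol kinase gene Dgkh and the cation channel gene Trpc6 were higher by 1.19 and 1.54. Of 12 tested granule cell markers 9 were called higher and 0 lower, with a median log2 fold change of 1.03, where 16.8% of all genes were called higher. In control mice 7 of the 12 were called higher and 1 lower, with a median of 0.89.

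Genes of the pyramidal fields were less uniform. Beside their counts, 16.8% of all genes were called higher and 16.2% lower, and in control mice 7.1% and 7.04%. Of 10 CA1 markers 6 were higher and 2 lower (median 0.78), and Fibcd1 was the clearest among those higher, at 5.77 to 7.85 CPM in cortex (median 6.44) and 11.6 to 31.1 in hippocampus (median 17.1). The groups did not overlap, and the log2 fold change was 1.69 ± 0.23 (edgeR adjusted p = 0.00022). Limited to mice 23, 34 and 41, 3 of 10 CA1 markers were called higher and 2 lower. In that fit 1440 of 13364 genes were higher and 1346 lower. Among 10 CA3 markers 2 were called higher and 0 lower, with a median of 0.15, whereas 7 were higher and 1 lower in control mice, with a median of 0.72. A single CA3 marker, the apoptosis regulator Bok, had a called difference between the genotypes (0.71 in control and -0.21 in GA-Camk2a mice). Tspan18, a tetraspanin, had the largest CA3 value at 1.29 ± 0.29 (edgeR adjusted p = 0.00441), a call that ended without mouse 16 (0.83). Of 15 genes expressed across hippocampal fields 6 were higher and 1 lower, including the actin regulator Wipf3 (1.06), the mineralocorticoid receptor Nr3c2 (1.27) and the ephrin receptor Epha7 (0.87), each without overlap between the tissues. CA2 markers gave 1 higher and 1 lower of 9.

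Single cortical neuron genes had clear regional differences, while the lists were mixed. Lamp5, a marker of superficial layers, ranged from 34 to 78.0 CPM in cortex (median 60.2) and from 15.5 to 23.5 in hippocampus (median 20.9), with no overlap. Its log2 fold change was -1.47 ± 0.13 (edgeR adjusted p = 1.16e-05) against -1.95 in control mice. The neuropeptide gene Cartpt (-1.45) and the layer 2 to 4 factor Cux2 (-0.97) were lower as well, and Cux2 was lower in every mouse although the groups overlapped. Of 15 upper layer markers 3 were lower and 1 higher (median -0.08), where 16.2% of all genes were lower and 16.8% higher, and in control mice 6 were lower and 1 higher (median -0.37). The marker called higher was Rorb (1.60 ± 0.56, edgeR adjusted p = 0.045), through the hippocampus libraries of mice 16 and 30. It was lower in the other 4 mice, and the call ended without mouse 16 (1.24), mouse 23 (1.3) or mouse 30 (0.97).

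Among 19 deep layer markers, 7 were lower and 5 higher (median -0.01), against 9 lower and 4 higher in control mice (median -0.45). The subplate gene Cplx3 (-1.73), the layer 6 gene Rprm (-1.64) and the projection neuron factor Tbr1 (-0.90) had no overlap between the tissues. Of 18 genes of neocortical excitatory neurons, 9 were lower and 4 higher (median -0.61), where 16.2% of all genes were called lower, and the counts in control mice were also 9 and 4 (median -0.33). Syntaxin 1A (Stx1a), a component of the vesicle fusion machinery, stood out with 97.3 to 129 CPM in cortex (median 113) and 32.9 to 42.8 in hippocampus (median 34.7). Its spread within each tissue was small, and it was lower by -1.60 ± 0.09 (edgeR adjusted p = 3.93e-07). The calmodulin regulator Arpp21 (-1.16) and the transcription factor Mef2c (-1.07) were lower without overlap. Pcp4, a calmodulin-binding protein of layers 5 and 6 and of CA2, was lower at -0.66 against -1.37 in control mice. The difference between the genotypes was called for Mef2c (0.87, edgeR adjusted p = 0.0407) and Pcp4 (0.68, edgeR adjusted p = 0.0483). Camk2a, whose promoter drives the Cre, was at 314 to 370 CPM in cortex and 339 to 449 in hippocampus, a difference that was not called (0.17, edgeR adjusted p = 0.0777).

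**Figure D2:**
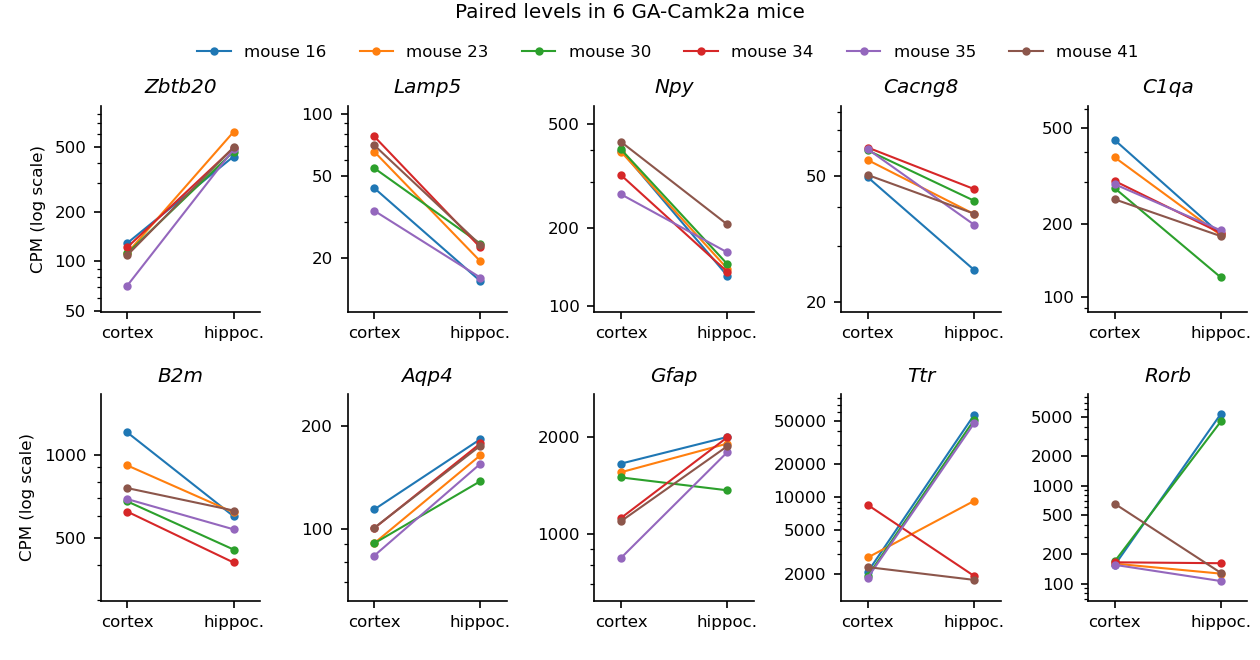
CPM in cortex and hippocampus (log axis) of 10 genes, with 1 line per GA-Camk2a mouse. Zbtb20 and Aqp4 rose and Lamp5, Npy, Cacng8, C1qa and B2m fell from cortex to hippocampus in all 6 mice, while Ttr and Rorb rose steeply only in some mice.

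Beyond the lists, the 12 largest positive values with the same sign in all mice held 9 transcripts of the annotation class TEC, a provisional class of unproven loci. They were led by Gm42992 at 3.64 and stood together with C1ql2, the guidance ligand Slit3 (2.38) and the prolactin receptor Prlr (2.65). The TEC class was shifted as a whole. Of 138 tested, 55.1% were called higher and 6.52% lower, with a median of 0.89, against 0.72 in control mice. In the fit of mice 23, 34 and 41 alone, which also has no batch term, Prlr was at 0.80 and not called. On the negative side were the keratin Krt12 (-2.57), the T cell receptor constant segment Trbc2 (-2.53), the postsynaptic anchoring protein Akap5 (-2.53) and Dkkl1 (-2.49), none with an overlap between the tissues. Akap5 varied from 391 to 4730 CPM among the cortex libraries and only from 210 to 313 in hippocampus. All 4 genes were also lower in control hippocampus, by -2.43 to -3.43. The T cell genes Cd3e, Cd3d, Cd3g, Cd8a and Cd4 held at most 6 counts in any GA-Camk2a library and were not tested, so Trbc2 is not read here as T cells.

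Interneuron neuropeptides were lower in hippocampus. Neuropeptide Y (Npy) ranged from 269 to 429 CPM in cortex (median 395) and from 131 to 206 in hippocampus (median 142). No library of hippocampus reached the cortex range, and the log2 fold change was -1.29 ± 0.11 (edgeR adjusted p = 9.1e-06) against -0.60 in control mice. For Npy the difference between the genotypes was not called. Corticotropin-releasing hormone (Crh, -1.99), tachykinin 2 (Tac2, -1.48) and vasoactive intestinal peptide (Vip, -1.30) were lower by more, and somatostatin (Sst, -0.72) and parvalbumin (Pvalb, -0.83) by less. Of 22 inhibitory neuron markers 9 were lower and 4 higher (median -0.28), where 16.2% of all genes were lower and 16.8% higher, and in control mice 9 were lower and 1 higher. Reln, the extracellular protein of Cajal-Retzius cells and interneurons, was among those higher (0.68), a call that DESeq2 did not make (adjusted p = 0.0571). In the fit of all libraries Reln was at -0.50 in control and 0.69 in GA-Camk2a mice, a called difference of 1.19 (edgeR adjusted p = 0.0359). Cholecystokinin (Cck), which pyramidal cells also make, was lower by -0.75, against -0.03 in control mice (difference -0.74, edgeR adjusted p = 0.0407), and its receptor Cckbr by -1.93.

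More microglial activation genes were called lower than higher in hippocampus. The count fell without mouse 16, when the estimate rested on the same-batch mice. C1qa, a chain of the complement starter C1q made by microglia, ranged from 254 to 447 CPM in cortex (median 298) and from 121 to 189 in hippocampus (median 181). All hippocampus libraries lay below all cortex libraries, by -0.95 ± 0.10 (edgeR adjusted p = 3.7e-05), against -0.41 in control mice. Cathepsin Z (Ctsz), a lysosomal protease, was at 118 to 174 CPM in cortex (median 137) and 69.4 to 80.0 in hippocampus (median 75). It too showed no overlap, with a value of -0.93 ± 0.09 (edgeR adjusted p = 2.18e-05). Of 45 genes of activated microglia 12 were called lower and 4 higher (median -0.21), and of 28 microglia identity genes 8 were lower and 2 higher (median -0.19), where 16.2% of all genes were lower and 16.8% higher. Without mouse 16 the 45 genes gave 2 lower and 1 higher and the 28 genes 3 lower and 0 higher. In that fit 1038 of 13102 genes were lower and 1233 higher. The same-batch mice gave 3 lower and 1 higher of 44 and 3 lower and 0 higher, where 823 of 13158 genes were lower and 1087 higher. With the adjustment for gene span described further on, 7 of the 45 were lower, where 13.1% of all genes were. In control mice the 45 genes gave 1 lower and 2 higher and the 28 genes 1 lower and 0 higher, where 7.04% of all genes were lower and 7.1% higher.

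The receptor and signalling genes of the disease-associated state had smaller values, mostly with overlapping groups. The protease inhibitor Cst7 was lower by -0.76 ± 0.19 (edgeR adjusted p = 0.00787), the receptor adaptor Tyrobp by -0.59 ± 0.12 (edgeR adjusted p = 0.00258), the lipid receptor Trem2 by -0.43 ± 0.13 (edgeR adjusted p = 0.0243) and the Fc receptor chain Fcer1g by -0.60 ± 0.11 (edgeR adjusted p = 0.00147). Osteopontin (Spp1, -0.65), the scavenger-related Fcrls (-0.68), C1qb (-0.42) and the ferritin heavy chain Fth1 (-0.37, no overlap) were lower as well. In the other direction, the TAM receptor Axl, which binds phosphatidylserine bridges on dying cells, was at 19.9 to 27.1 CPM in cortex (median 25.8) and 28.7 to 44.4 in hippocampus (median 37.5). Its groups were separate, at 0.55 ± 0.13 (edgeR adjusted p = 0.00711), and the metalloprotease inhibitor Timp2 was higher by 0.39. Without mouse 16, when the estimate rested on the same-batch mice, the calls of C1qb (-0.41), Cst7 (-0.56), Tyrobp (-0.41), Trem2 (-0.30), Fth1 (-0.32) and Axl (0.48) ended. That of Trem2 also ended without mouse 23 (-0.35) or 30 (-0.33), and that of Spp1 without mouse 34 (-0.57). Spp1 was not called either when mice were not paired (-0.57, edgeR adjusted p = 0.18). Limited to mice 23, 34 and 41, 8 of 44 activation genes were called lower and 2 higher, with 2 of 28 identity genes lower and 1 higher. In that fit 1346 of 13364 genes were lower and 1440 higher.

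Not all microglial genes took part. Of the defining markers, Aif1 was at -0.44 (edgeR adjusted p = 0.0904), P2ry12 at -0.29, Cx3cr1 at 0.06, Tmem119 at 0.11 and Csf1r at 0.09, and none of the 5 was called. The summed CPM of the identity genes was 7220 to 9352 in cortex (median 7781) and 5685 to 8270 in hippocampus (median 7875) of GA-Camk2a mice, higher in hippocampus in 2 of 6 mice. All these values were above the 4060 to 4922 and 4276 to 4760 of control mice. The medians of the activated list were 17120 in cortex and 17260 in hippocampus. For no gene of these microglial lists was the regional difference itself called different between the genotypes.

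**Figure D3:**
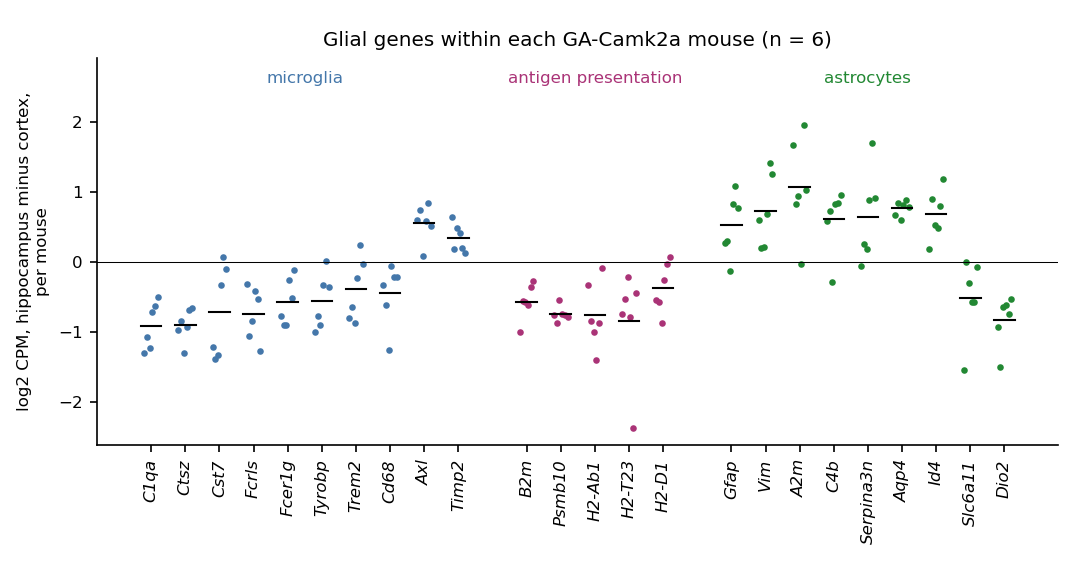
Log2 CPM of hippocampus minus cortex within each of the 6 GA-Camk2a mice (points) and their mean (bars) for microglial, antigen presentation and astrocyte genes. C1qa, Ctsz and B2m lie below 0 in all mice and Aqp4, Vim and Id4 above 0 in all mice, whereas Gfap is above 0 in 5 of 6 mice.

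Several genes of antigen presentation were lower in hippocampus. The class I pathway cuts proteins in the immunoproteasome and displays the peptides on H2 heavy chains paired with beta-2 microglobulin (B2m). B2m ranged from 624 to 1203 CPM in cortex (median 725) and from 409 to 630 in hippocampus (median 570). It was lower in hippocampus in every mouse, with a slight overlap between groups, by -0.61 ± 0.08 (edgeR adjusted p = 0.000138). In control mice B2m was at 197 to 226 CPM in cortex and 186 to 215 in hippocampus, with a log2 fold change of -0.03. The immunoproteasome subunit Psmb10 was at 73.5 to 101 CPM in cortex (median 83.7) and 44.7 to 59.5 in hippocampus (median 49.1), with no overlap and a value of -0.74 ± 0.08 (edgeR adjusted p = 5.84e-05). Of 19 genes of antigen presentation 8 were lower and 0 higher (median -0.40), where 16.2% of all genes were lower, and the class II chain H2-Ab1 was among them at -0.74. The heavy chains H2-T23 (-0.82) and H2-D1 (-0.40) were lower as well, although H2 genes resemble each other and their counts may be split. Without mouse 16 the calls of H2-T23 (-1.02) and H2-D1 (-0.40) ended, and that of H2-D1 also without mouse 30 (-0.29) or without pairing (-0.42, edgeR adjusted p = 0.0843).

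Genes of the interferon response showed no common shift, with 2 higher and 1 lower of 37 (median 0.10), where 16.8% and 16.2% of all genes were. The gene called lower was Ifi27l2a, at -0.96 ± 0.14 (edgeR adjusted p = 0.000319). Because interferon regulatory factors act through promoter elements with a pair of GAAA blocks, the 250 bases before the RefSeq start of each gene (GRCm38.p6) were searched on both strands for GAAA, any 2 bases and GAAA again, overlapping matches included. The letters occurred in 821 of 27025 promoters (3.04%), in 15 of 30 promoters of interferon-stimulated genes (50.0%) and in 3 of 16 promoters of antigen presentation genes (18.8%), namely those of B2m, H2-T22 and H2-T23. Of the 15 interferon-stimulated genes with a match 0 were called lower and 2 higher, a share near that of all genes, and of the 3 antigen presentation genes B2m and H2-T23 were lower, the latter not without mouse 16, with DESeq2 or with the span adjustment. Their promoters are shown with the match in capitals, that of B2m (chr2:122147437-122147686, plus strand) starting 139 bases before the gene and that of H2-T23 (chr17:36032702-36032951, minus strand) 124 bases before it and on the opposite strand. A match is a description of the letters and was not tested as a binding site.
B2m: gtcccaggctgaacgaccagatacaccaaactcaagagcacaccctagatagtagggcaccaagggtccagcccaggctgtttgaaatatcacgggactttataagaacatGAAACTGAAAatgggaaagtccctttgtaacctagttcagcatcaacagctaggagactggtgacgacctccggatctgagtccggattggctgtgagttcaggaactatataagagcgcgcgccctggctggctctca
H2-T23: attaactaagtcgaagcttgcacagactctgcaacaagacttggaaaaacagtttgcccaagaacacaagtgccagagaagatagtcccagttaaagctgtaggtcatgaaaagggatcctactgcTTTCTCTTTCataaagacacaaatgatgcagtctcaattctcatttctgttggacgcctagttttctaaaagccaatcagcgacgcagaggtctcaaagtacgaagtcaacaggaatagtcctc

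Some astrocyte genes were higher in hippocampus. Gfap, the intermediate filament that marks reactive astrocytes, ranged from 843 to 1656 CPM in cortex (median 1311) and from 1368 to 2003 in hippocampus (median 1893). It was higher in hippocampus in 5 of 6 mice with overlapping groups, by 0.51 ± 0.14 (edgeR adjusted p = 0.0126), close to 0.56 in control mice. Vimentin (Vim) was at 78.3 to 220 CPM in cortex (median 119) and 155 to 302 in hippocampus (median 220). It was higher in every mouse by 0.70 ± 0.15 (edgeR adjusted p = 0.00353) against 0.01 in control mice, a difference between the genotypes that was not called (0.67, edgeR adjusted p = 0.30). The protease inhibitors A2m (1.16) and Serpina3n (0.55), complement C4b (0.57) and the sphingosine receptor S1pr3 (0.65) were higher too. Of 34 reactive astrocyte genes 9 were higher and 2 lower (median 0.24), where 16.8% of all genes were higher and 16.2% lower, against 3 and 2 in control mice, where 7.1% and 7.04% were. Without mouse 16 the list gave 4 higher and 0 lower of 33, where 1233 of 13102 genes were higher and 1038 lower. The calls of Gfap (0.60), C4b (0.43) and S1pr3 (0.45) ended without mouse 16, that of Gfap also without mouse 35 (0.37), and that of Serpina3n without mouse 34 (0.50), 35 (0.35) or 41 (0.52) or without pairing (0.46, edgeR adjusted p = 0.297).

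The homeostatic astrocyte genes were evenly split, with 8 higher and 8 lower of 39, where 16.8% of all genes were higher and 16.2% lower. The water channel Aqp4 ranged from 83.4 to 114 CPM in cortex (median 95.5) and from 138 to 183 in hippocampus (median 169). All hippocampus libraries were above all cortex libraries, by 0.76 ± 0.07 (edgeR adjusted p = 2.18e-05). The bicarbonate transporter Slc4a4 (0.74) and the differentiation inhibitor Id4 (0.61) also had no overlap. Lower in hippocampus were the GABA transporter Slc6a11 (-0.63), whose call ended without mouse 16 (-0.48), and the thyroid hormone deiodinase Dio2 (-0.85), which varied widely between mice (19.1 to 102 CPM in cortex and 12.9 to 66.4 in hippocampus) but was lower in hippocampus in each. Without pairing, Dio2 was not called (-0.77, edgeR adjusted p = 0.135). For no gene of the astrocyte lists was a difference between the genotypes called.

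Chemokines and cytokines made by neurons and other cells were split as well, 4 higher and 6 lower of 25. Over all genes 16.8% were higher and 16.2% lower. Tgfb2, a growth factor that holds microglia and astrocytes in a resting state, was at 8.98 to 14.6 CPM in cortex (median 12.4) and 21.9 to 54.7 in hippocampus (median 37.7). It showed no overlap and was higher by 1.72 ± 0.16 (edgeR adjusted p = 1.62e-05), against 2.25 in control mice. The neuronal CSF1 receptor ligand Il34, on which microglial survival depends, was at 22.5 to 29.2 CPM in cortex (median 24.8) and 11.6 to 15.8 in hippocampus (median 13). This gave -0.93 ± 0.15 with no overlap (edgeR adjusted p = 0.000534). Cxcl14 (-0.56) and Ccl27a (-0.69) were also lower without overlap, and the neuronal fractalkine Cx3cl1 (-0.48) and the TWEAK receptor Tnfrsf12a (-1.20) were lower in every mouse. Ccl9 was called higher (1.55 ± 0.40, edgeR adjusted p = 0.00982), but only 3 of 6 mice were higher and the hippocampus library of mouse 34 held 66.8 CPM against 2.15 to 22 in the others. Among 18 complement genes 4 were higher and 3 lower, the lower ones being the C1q chains and the higher ones including the regulator Cd59a (1.35). Cd59a was at 0.27 and not called in mice 23, 34 and 41 alone.

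Few myelin and oligodendrocyte genes were called between the tissues. Of 35 such genes 3 were higher and 2 lower (median 0.01), where 16.8% of all genes were higher and 16.2% lower. Their summed CPM was 9404 to 12704 in cortex (median 10670) and 5978 to 11553 in hippocampus (median 8546). It was higher in hippocampus in 1 of 6 mice. Prostaglandin D synthase (Ptgds), made by oligodendrocytes and meninges, was lower by -1.21 ± 0.21 (edgeR adjusted p = 0.000998) in 5 of 6 mice, while the hippocampus library of mouse 23 held 6648 CPM against 1612 to 3339 in the others. Of 16 genes of disease-associated oligodendrocytes 5 were higher (31.2%) and 3 lower (18.8%), with a median of -0.01. The nuclear RNA Neat1 was the clearest, at 21 to 34.1 CPM in cortex (median 25.4) and 47.3 to 87.1 in hippocampus (median 59.2). Its groups were separate and the value was 1.22 ± 0.11 (edgeR adjusted p = 1.16e-05), against 0.45 in control mice, a difference between the genotypes that was not called. Another nuclear RNA, Malat1, was higher by 1.19 ± 0.765 (SD, n = 6) in log2 CPM, in 5 of 6 mice (exact sign-flip permutation test, p = 0.0625), and its part in the value of Neat1 was not tested.

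Cholesterol and lysosomal genes were called in both directions, where 16.8% of all genes were called higher and 16.2% lower. In the synthesis list 1 was higher and 3 lower of 22, among them farnesyl diphosphate synthase (Fdps, -0.71). In the export and storage list 5 were higher and 4 lower of 25. The efflux pump Abca1 was at 10.5 to 24.5 CPM in cortex (median 19.8) and 22.6 to 56.2 in hippocampus (median 35.7). It was higher in every mouse, by 1.03 ± 0.15 (edgeR adjusted p = 0.000287), whereas its partner Abcg1 was lower by -0.62, and the neuronal cholesterol hydroxylase Cyp46a1 by -0.56. The lysosomal cholesterol exporter Npc1 was higher by 0.69 without overlap. Of 42 lysosomal genes 10 were higher (23.8%) and 9 lower (21.4%), with Tmem106b (0.55) and prosaposin (Psap, -0.55) among them and neither overlapping.

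Glutamate receptor and channel genes were more often called higher than lower in hippocampus, before any adjustment for gene span. Gria1, the AMPA receptor subunit rich in hippocampus, ranged from 132 to 169 CPM in cortex (median 144) and from 243 to 361 in hippocampus (median 310). The tissues did not overlap, at 0.97 ± 0.08 (edgeR adjusted p = 8.52e-06). Of 33 glutamate receptor genes 10 were higher and 4 lower (median 0.25), where 16.8% of all genes were higher and 16.2% lower, with Gria2 (0.80), Grin2a (0.94) and the AMPA receptor auxiliary protein Shisa6 (1.56) higher and the auxiliary subunits Cacng3 (-1.03) and Cacng8 (-0.64) lower, all 5 without overlap. Of 16 GABA-A receptor genes 4 were higher and 2 lower. Gabrb1 was higher by 0.97 and the extrasynaptic subunit Gabrd lower by -0.87. Of 56 potassium and calcium channel genes 18 were higher and 5 lower (median 0.26), led among the examples shown by the channel Kcnd3 (1.08) and the ryanodine receptor Ryr2 (1.01).

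Many of these receptor and channel genes are long, and gene length moved with the regional difference. Across 11058 protein-coding genes the log2 fold change and the gene span (the bases from start to end in the annotation) had a Spearman correlation of 0.403 in GA-Camk2a and 0.256 in control mice, a description across genes. The median ranged from -0.24 in the tenth with the shortest genes to 0.31 in that with the longest. Genes over 100000 bases took 7.94% ± 0.443 (SD, n = 6) of the counts in cortex and 9.83% ± 0.543 in hippocampus, higher in 6 of 6 mice (exact sign-flip permutation test, p = 0.0312, the smallest that 6 mice allow). Processed pseudogenes took 4.55% and 3.93%, and of the 956 tested 29.4% were called lower and 0.418% higher. Whether unspliced RNA, RNA quality or biology of long genes lies behind this was not tested. After the trend with gene span was removed from each library (an adjustment chosen after seeing the data), 3165 genes (24.2%) were called, 11% higher and 13.1% lower. Under this adjustment channels gave 11 higher and 7 lower, GABA-A receptors 1 and 6, glutamate receptors 8 and 6, activated microglia genes 3 and 7, antigen presentation 0 and 5 and reactive astrocyte genes 9 and 2. The calls of C1qb, Trem2, Spp1, Fth1, H2-T23, H2-D1, Gabra5 and Rorb ended under it.

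**Figure D4:**
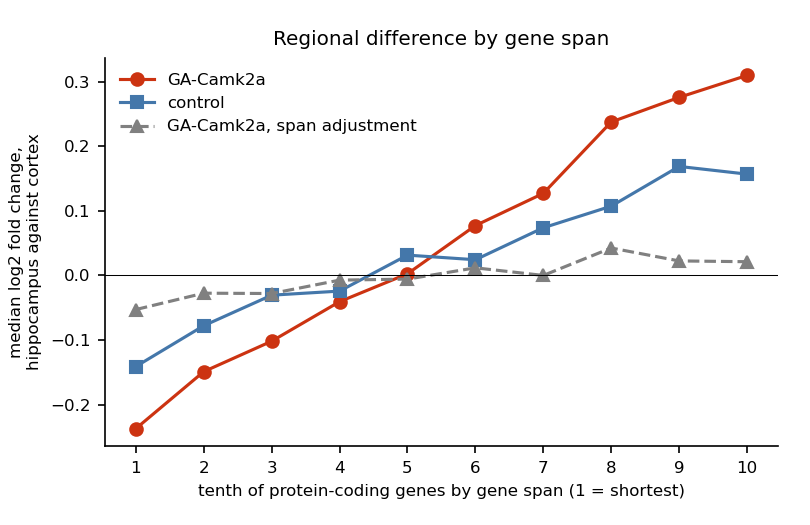
Median log2 fold change of hippocampus against cortex (y axis) in 10 equal groups of protein-coding genes ordered by gene span (x axis). In GA-Camk2a mice the median rose from -0.24 to 0.31 and in control mice from -0.14 to 0.16, and it stayed between -0.05 and 0.04 after the span adjustment.

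Immediate early genes, induced by neuronal activity, were split. Egr1, an activity-induced transcription factor, was at 33.3 to 54.2 CPM in cortex (median 41) and 19.4 to 30.8 in hippocampus (median 22), without overlap, and was lower by -0.86 ± 0.12 (edgeR adjusted p = 0.000255). The phosphatase Dusp1 (-1.14) and the AP-1 gene Junb (-0.92) were lower, while Jun was higher (0.64). Of 22 immediate early genes 6 were lower, 4 higher and 12 not called, where 16.2% of all genes were lower and 16.8% higher, against 12 lower and 3 higher in control mice. The microtubule genes Stmn1 (-1.03) and Tubb3 (-0.80), both marks of young neurons, were lower without overlap, as in control mice (-1.23 and -0.65).

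**Figure D5:**
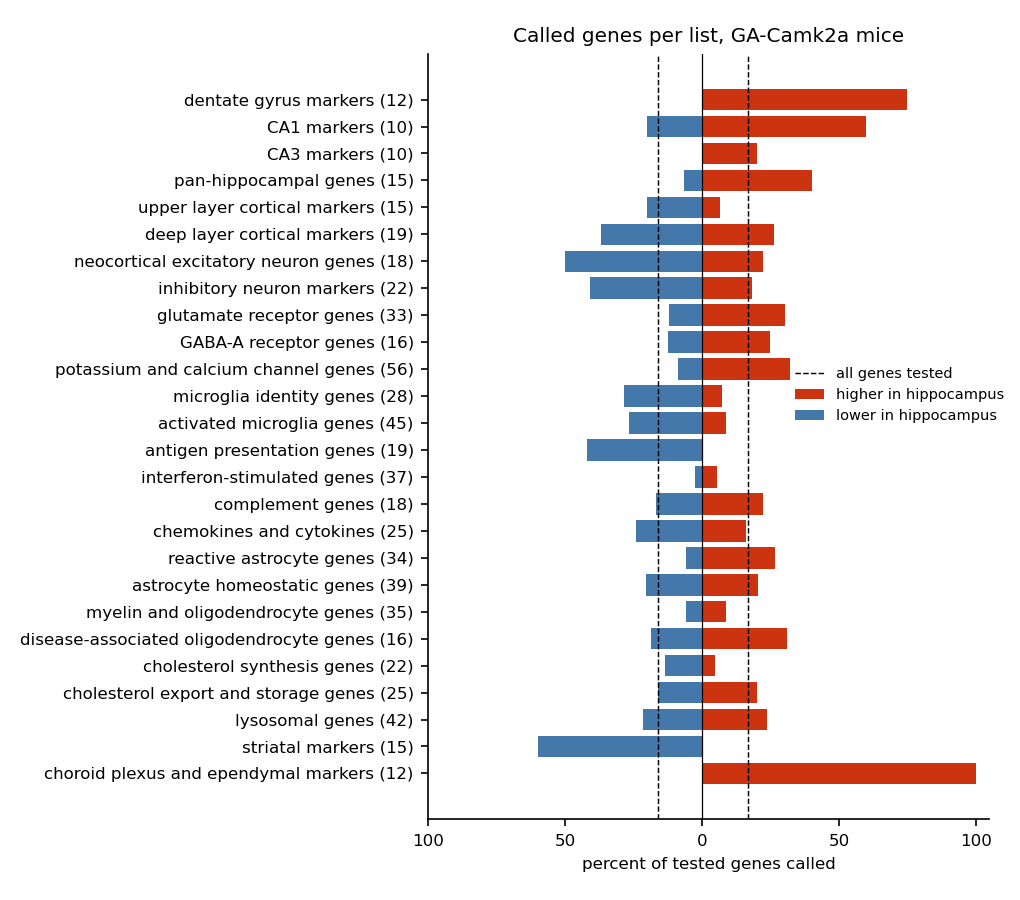
Percent of the tested genes of each list (number in brackets) that were called higher (right, red) or lower (left, blue) in hippocampus of GA-Camk2a mice, with dashed lines at the 16.8% and 16.2% of all genes. Granule cell, CA1 and choroid plexus markers reach farthest to the right, and striatal, neocortical excitatory and antigen presentation genes to the left.

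The regional difference itself differed between the genotypes for 70 of 14751 genes (0.475%; edgeR, contrast of the contrasts in the fit of all libraries), and for 0.468% with the span adjustment. The value was larger in GA-Camk2a than in control mice for 0.203% of genes and smaller for 0.271%. For 31 of the 70 the size was smaller in GA-Camk2a than in control mice, for 12 larger, and for 27 the sign was opposite. The lowest p belonged to Cacng8, an AMPA receptor auxiliary subunit enriched in hippocampus. In control mice it was at 54.2 to 67.9 CPM in cortex (median 61.8) and 83.9 to 97.1 in hippocampus (median 91.0), and in GA-Camk2a mice at 49.6 to 61.7 in cortex (median 58.4) and 25.2 to 45.6 in hippocampus (median 38). It was thus higher in control hippocampus (0.61) and lower in GA-Camk2a hippocampus (-0.66 in this fit), a difference of -1.27 ± 0.13 (edgeR adjusted p = 0.000336). Cortex levels of Cacng8 overlapped between the genotypes, and hippocampus levels did not, although the CPM of the genotypes were normalized separately.

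Several genes of pyramidal neurons had a regional difference that was smaller or of opposite sign in GA-Camk2a mice. The values of both genotypes given with a difference come from the fit of all libraries and depart slightly from those of the fit of 12. Gabra5, a GABA-A subunit of hippocampal pyramidal cells, had a regional log2 fold change of 1.41 in control and 0.33 in GA-Camk2a mice (difference -1.08 ± 0.15, edgeR adjusted p = 0.00403). The CA1 gene Spink8 went from 3.23 to 1.34 (difference -1.89 ± 0.30, edgeR adjusted p = 0.0125). In hippocampus Spink8 was at 67.7 to 106 CPM in control and 22.6 to 33.8 in GA-Camk2a mice. The calcium sensor hippocalcin (Hpca) went from 1.11 to 0.18, the pyramidal factor Neurod6 from 1.37 to 0.15, the AMPA receptor partner Cnih2 from 0.99 to 0.11 and the copine Cpne6 from 1.5 to 0.54. Wfs1, an endoplasmic reticulum protein of CA1 and upper layers, went from -0.14 to -1.19 (difference -1.05 ± 0.18, edgeR adjusted p = 0.0179), and the vesicular glutamate transporter Slc17a7 from 0.14 to -0.48. The transcript Gm44257 went from 0.79 to -0.69. Larger in GA-Camk2a mice were the integrin Itgb8 (0.12 in control, 1.16 in GA-Camk2a mice) and the phosphatase Impad1 (-0.13 and 0.72), while the synaptic organizer Cbln2 was less negative (-1.86 and -0.63). In the glial and immune lists such a call was found for B2m (difference -0.59 ± 0.13, edgeR adjusted p = 0.0415) and for the cell cycle inhibitor Cdkn1a of the disease-associated oligodendrocyte list (1.16).

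These calls rested on few control mice. Without control mouse 31, 5 genes were called, and without control mouse 37, 8. Mice 31 and 37 were the only control pairs with tissues in different batches, in opposite order. The cortex library of mouse 31 also had the largest share of long genes among control cortex (10.7% against 8.4% to 9.15%). Whether batch or the share of long genes bears on the lost calls was not tested. Without mouse 16 of the GA-Camk2a group 18 were called, without control mouse 11, 39, without GA-Camk2a mouse 23, 37, and without GA-Camk2a mouse 35, 39. Of the 23 genes whose difference is given, Cacng8, Gm44257, Cpne6 and Ppp1r1b kept their call in every omission. The differences of the others without control mouse 31 had the same sign and were -0.96 for Gabra5, -1.43 for Spink8, -0.78 for Cnih2, -0.73 for Hpca, -1.0 for Neurod6, -0.87 for Wfs1, -0.55 for Slc17a7, -0.60 for B2m, 1.02 for Itgb8, 0.77 for Impad1 and 1.28 for Cbln2. Those of Mef2c (0.68), Cck (-0.60), Reln (0.80), Pcp4 (0.86), Bok (-0.72) and Cdkn1a (1.35) also ended then, and each of these 6 calls ended in 5 to 8 of the 11 omissions. Over all 11 omissions the adjusted p of B2m ranged from 0.0463 to 0.229, and its call held only without control mouse 38. With the span adjustment B2m was not called either (edgeR adjusted p = 0.0812).

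Striatal genes made up part of this contrast. The cortex libraries held RNA of striatal type, as the sum of 22 striatal markers was 1505 to 2150 CPM in control cortex, 489 to 938 in GA-Camk2a cortex and 443 to 540 in GA-Camk2a hippocampus. Of the 15 markers tested 9 were lower in GA-Camk2a hippocampus (median -0.64), where 16.2% of all genes were. In control hippocampus 15 were lower (median -1.75), where 7.04% of all genes were. A difference between the genotypes was called for 6, where 0.475% of all genes had such a call. DESeq2 called 4 of the 15 lower in GA-Camk2a hippocampus, where 810 of 13098 genes were. In mice 23, 34 and 41 alone 5 of 15 were lower (median -0.45), where 1346 of 13364 genes were. Proenkephalin (Penk) was at 125 to 386 CPM in GA-Camk2a cortex (median 222) and 69.6 to 87.7 in hippocampus (median 80.5). It did not overlap between the tissues and was lower by -1.53 ± 0.18 (edgeR adjusted p = 7.72e-05) against -3.00 in control mice. In the fit of all libraries the dopamine receptor Drd1 was at -1.39 against -2.78, a difference that was not called. The phosphatase inhibitor Ppp1r1b was at -0.17 against -1.75 and the phosphodiesterase Pde10a at 0.38 against -0.96. Whether less striatal tissue was dissected with the GA-Camk2a cortex or its cells held less RNA cannot be told apart here. Without control mouse 31 the genotype differences of Penk (1.62) and Pde10a (1.23) were not called, and that of Ppp1r1b was (1.38 to 1.78 over all omissions).

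Choroid plexus and ependymal genes were higher in hippocampus through part of the mice. All 12 tested were called higher (median 2.09), where 16.8% of all genes were. Their sum ranged from 1911 to 8772 CPM in cortex and from 2288 to 58377 in hippocampus. Without mouse 16, 6 of the 12 were called higher, where 1233 of 13102 genes were. In mice 23, 34 and 41 alone 2 of 12 were (median 0.398), where 1440 of 13364 genes were. Ttr was called higher at 2.9 ± 0.78 (edgeR adjusted p = 0.0131) in 4 of 6 mice, a call that ended without mouse 16 (3.20) or mouse 35 (2.41), and in mice 23, 34 and 41 alone its value was -0.29. The genes of ciliated ependyma did not follow Ttr. Tmem212 was at 5.13 to 9.35 CPM in cortex (median 7.55) and 13.7 to 36.1 in hippocampus (median 18.3), and Ccdc153 at 3.21 to 8.60 (median 7.62) and 10.4 to 27.7 (median 19.9). Neither overlapped between the tissues, at 1.5 and 1.63, and the highest hippocampus library of Tmem212 was that of mouse 41, which was lowest in Ttr.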

How the data were processed

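Cortex and hippocampus were profiled with prime-seq, a bulk RNA-seq method that counts the 3' ends of transcripts. The authors deposited whole-number counts per gene, made by their pipeline of zUMIs and STAR on mm39 with a row for the GFP tag. The submitters' processing notes also name FastQC 0.11.8, cutadapt 1.12 and DESeq2 1.44. Whether the counts are of molecular identifiers or reads, and the annotation release, intron and strand settings, are not given in the sources used here, so overlapping and antisense genes cannot be told apart. The table held 64361 genes and the GFP row, which was kept out of library sizes and tests. Symbols and gene spans came from GENCODE M21 (GRCm38), matched by gene ID for 43308 genes with 96.1% of the counts.

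From the deposited counts, hippocampus was compared with cortex in 12 libraries with edgeR 4.0.16 in R 4.3.3 (quasi-likelihood F-test, TMM normalization, filterByExpr with a minimum count of 10, terms for mouse, batch and tissue, 4 residual degrees of freedom). The control contrast and the genotype difference came from a fit of all 21 libraries with 7 residual degrees of freedom. P-values were adjusted over all genes tested (Benjamini-Hochberg, threshold 0.05). CPM of named genes are counts of the tested genes scaled to a common library total with TMM factors. These factors came from the fit of 12 libraries for GA-Camk2a mice and from the fit of all 21 libraries for control mice. Gene CPM of the genotypes were thus normalized separately, and their comparison is descriptive. Summed CPM of lists and the CPM of Malat1 were scaled by the total of all genes, without TMM factors. Errors of log2 fold changes are standard errors. Shares of counts were compared by a two-sided exact sign-flip permutation test over mice (64 sign flips). Mouse numbers pair the libraries because both tissues came from the same animal, although the libraries of a mouse correlated in their deviations from the tissue means only weakly, from -0.09 to 0.25 across 12029 genes. No library was identical to another. The fits were tested on simulated data.

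Alternatives were fits without the mouse or batch term, DESeq2 1.42.0, limma 3.58.1, other size factors and filters, thinning, single batches and omission of each mouse. The span adjustment and the restriction to mice 23, 34 and 41 were added after the data were seen. Named genes were members of 38 lists (719 of 888 distinct members tested), the 12 largest changes in each direction with a mean log2 CPM of at least 3 and the same sign in 6 of 6 mice, and the 5 lowest p-values of the genotype difference in each direction. The members and lists were chosen with earlier results of these data known. Results of a few genes are not reported here.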

Additional observations from a re-analysis of the deposited data

Results flagged for a closer look

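The highest or lowest library of a group of 6 stood far from the others in 17 of 236 groups checked, where chance gives about 1 in 20. In hippocampus these were Zbtb20 in mouse 23 (618 CPM), Tbr1 in mouse 34 (23), C1qa (121), Trem2 (68.7) and Gfap (1370) in mouse 30, Ifi27l2a in mouse 16 (44.0), Dio2 (66.4) and Ccl9 (66.8) in mouse 34, Ptgds in mouse 23 (6650) and Tmem106b in mouse 41 (71.6). In cortex these were Zbtb20 (71.2) and Gria2 (219) in mouse 35, Rorb in mouse 41 (654), Tac2 in mouse 23 (49.4) and Krt12 (15.6), Ttr (8470) and P2ry12 (51.5) in mouse 34. Of the 3 genes in the hippocampus library of mouse 30, C1qa, Trem2 and Gfap were each its lowest values in hippocampus, and the cause was not tested.

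The regional log2 fold change of 23 genes given in the text differed between GA-Camk2a and control mice by a test of the difference itself (edgeR). It was more negative or less positive in GA-Camk2a mice for B2m (-0.59), Slc17a7 (-0.62), Cck (-0.74), Cnih2 (-0.88), Bok (-0.92), Hpca (-0.93), Cpne6 (-0.96), Wfs1 (-1.05), Gabra5 (-1.08), Neurod6 (-1.22), Cacng8 (-1.27), Gm44257 (-1.49) and Spink8 (-1.89). It was less negative or more positive for Pcp4 (0.68), Impad1 (0.85), Mef2c (0.87), Itgb8 (1.03), Cdkn1a (1.16), Reln (1.19), Cbln2 (1.24), Pde10a (1.35), Penk (1.41) and Ppp1r1b (1.58).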

How the results depend on the processing

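Of the 113 genes given a value in the text, 107 were called. Under the 21 alternatives their values kept direction and side of the threshold in 2196 cases, lost the call in 135, gained it in 3 and changed sign in 9. The 23 genotype differences kept their call in 362 cases and lost it in 121. Other size factors and the fit without a filter changed none of the calls of the 113 genes. Of these DESeq2 ended 12, those of Rorb, Reln, Trem2, Fcrls, Axl, H2-T23, H2-D1, C4b, S1pr3, Ccl9, Gabra5 and Drd1. The sign turned for Rorb in batch 2 alone (-0.35) and in mice 23, 34 and 41 (-0.92), Serpina3n in batch 2 (-0.041), Ttr (-0.29) and Tmem119 (-0.10) in mice 23, 34 and 41, Cx3cr1 in batch 1 (-0.053), without mouse 34 (-0.044, against up to 0.205 without mouse 16) and with span adjustment (-0.21), and Camk2a with span adjustment (-0.016).

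The count of genes called in GA-Camk2a mice was 1647 with DESeq2, 1910 in the 3 same-batch mice, 2585 in batch 1, 1353 in batch 2, 2786 in mice 23, 34 and 41 and 2271 to 3911 with a mouse left out. Fewer libraries entered all of these but DESeq2, the fits of a single batch were also unpaired, and that of mice 23, 34 and 41 had no batch term. Without the pairing of mice it was 4350, against 4312 with it. In control mice it was 792 with DESeq2, 1363 after thinning and 1218 to 2141 with a mouse left out, lowest without control mouse 11 (1218), 37 (1220) or 20 (1285). The count of genotype differences was 24 without the batch term, 43 with DESeq2, 169 without a filter, 28 after thinning and 5 to 69 with a mouse left out. The share of control differences also called in GA-Camk2a mice was 47.8% in same-batch mice and 35.7% in batch 2. The log2 ratio of total counts was -0.0771 to 0.3776 with a mouse left out, turning sign without mouse 16. With a mouse left out, the difference in the share of long genes was 1.83 to 1.925 percentage points and that of processed pseudogenes -0.665 to -0.6052, with p = 0.0625 in the exact permutation test, the smallest that 5 mice allow. Genes with few counts, such as the GFP row, cannot be compared at this depth.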

Other observations

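Other lists are given here as counts in GA-Camk2a mice, where 16.8% of all genes were called higher and 16.2% lower in hippocampus. Among 24 endothelial and pericyte markers 5 were higher and 4 lower in hippocampus (median 0.01), among 16 oligodendrocyte precursor genes 2 were higher and 1 lower (median 0.29), and among 14 thalamic markers 2 were higher and 2 lower (median -0.02). Leptomeningeal markers gave 3 higher and 1 lower of 13 (median 0.53) and blood markers 0 of 5. Lymphocyte and border macrophage markers gave 0 higher and 1 lower of 3, the latter being Trbc2. Genes enriched in astrocytes of particular regions gave 7 higher and 3 lower of 20 (median 0.11). Receptors for monoamines, acetylcholine and peptides gave 5 higher and 6 lower of 24, neuroblast and neurogenesis genes 5 and 5 of 16, and general excitatory neuron markers 4 and 5 of 15 (median 0.13).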
